A study of Mus musculus with 10 samples.

Results

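The genes described here are those of the cytoplasmic ribosomal proteins, chosen by symbol: names beginning with Rpl or Rps and a digit, together with Rplp0, Rplp1 and Rplp2, without the S6 kinases (Rps6k) and without pseudogene names ending in -ps. On the Affymetrix mouse array used, 47 of the 12393 genes tested met that rule, 21 of the small subunit and 26 of the large subunit, the stalk genes Rplp0 and Rplp2 among the latter. A gene was measured by probe sets that carry its symbol alone, and the brightest of these by mean over the 10 arrays stood for it. Of the 47 genes, 22 had more than 1 such probe set. No gene was removed by a filter on low values, so all 47 entered every count below. RefSeq (GRCm38.p6) lists 46 of them as protein-coding and 1, Rps4l, as a transcribed pseudogene, which its symbol does not show.

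The 10 arrays formed 5 groups of 2, all from intestinal epithelium of C57BL/6 mice. ISC was Lgr5+ stem cells of the crypt, sorted by the green fluorescent protein of Lgr5-eGFP-Cre mice. Rbpj Sec-Pro and DBZ Sec-Pro were crypt preparations enriched for progenitors of the secretory lineage, the former by deleting Rbpj, the DNA-binding partner of Notch, and the latter by dibenzazepine (DBZ), an inhibitor of Notch cleavage. Ent-Pro was the crypt fraction and ENT the villus fraction of Atoh1-/- mice, which lack the transcription factor needed for all secretory cells, so both hold enterocyte-lineage epithelium, as progenitors and as mature enterocytes. Crypts were released in 5 mM EDTA at 4 °C over 50 min and villi over 25 min. ENT and Ent-Pro therefore differ in tissue fraction and release time as well as in maturity, and these cannot be told apart. The labels used here do not say which cells beside the named ones remained in the crypt preparations, nor whether a group's pair of arrays stems from different mice. The p-values below thus reflect only how these arrays scatter, which may be technical.

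A ribosome joins a small subunit, which decodes the mRNA, to a large subunit, which forms the peptide bond and carries the stalk that recruits elongation factors. Ribosomal proteins are needed in matched amounts, and their mRNAs are among the most abundant of growing cells. In mammals most of these mRNAs start with a pyrimidine tract (the 5′ terminal oligopyrimidine motif) through which the kinase mTOR and the cap-binding protein Larp1 adjust translation, while Myc drives transcription of ribosome genes. In the intestine, crypts hold the dividing stem cells and progenitors and villi the non-dividing enterocytes.

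Markers of the labelled cell types were read in each group. Atoh1 read 5.75 and 5.78 (log2 value, the unit of every level below) in Ent-Pro and 4.97 and 5.18 in ENT against 10.40 to 11.85 on the Sec-Pro arrays. Rbpj read 6.74 and 6.62 in Rbpj Sec-Pro against 8.26 and 8.31 in DBZ Sec-Pro. The mean log2 value of 7 measured goblet cell markers was 6.38 to 6.39 in Ent-Pro and 11.10 to 11.29 in ISC. On the Sec-Pro arrays it was 13.22 to 13.74. That of 8 enterocyte markers was 12.97 to 13.27 in Ent-Pro and 13.91 to 13.96 in ENT, but also 12.82 to 13.32 in DBZ Sec-Pro and 13.63 to 13.81 in Rbpj Sec-Pro, against 10.86 to 10.93 in ISC. Enterocyte markers thus stood about as high in the secretory preparations as in Ent-Pro, and goblet cell markers were present in the stem cell sort. A list of 10 leukocyte markers read 6.29 to 6.34 in ISC, 6.76 to 6.84 in Ent-Pro, 7.78 to 7.84 in ENT, 6.74 to 8.83 in Rbpj Sec-Pro and 7.78 to 8.67 in DBZ Sec-Pro. Arrays of the same group correlated across genes with r from 0.982 to 0.995, where genes are not independent replicates.

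Pyrimidine tracts at the start site are shown first because they are the feature for which ribosomal protein mRNAs are known. Start windows were available for 41 of the 47 genes in RefSeq sequence of build GRCm38.p6. A tract, defined as a C followed by 4 or more pyrimidines with its first base within 15 bases of an annotated start, was found for 30 of the 41 genes (73.2%), against 44.1% of 27025 mouse genes. The windows below run from 15 bases before to 15 bases after the start, 5′ to 3′ on the gene's strand, with the longest tract in capitals and any shorter run that meets the definition left in lower case.
Rps18: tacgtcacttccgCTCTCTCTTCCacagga
Rpl35: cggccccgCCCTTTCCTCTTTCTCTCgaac
Rpl14: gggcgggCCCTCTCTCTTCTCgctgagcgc
Rps6: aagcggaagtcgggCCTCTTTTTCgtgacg
Rpl12: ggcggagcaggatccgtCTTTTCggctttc
Rps27: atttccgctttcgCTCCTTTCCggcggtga
Rpl39l: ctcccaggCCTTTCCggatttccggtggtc
Rps25: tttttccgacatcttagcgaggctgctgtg
Rps4x: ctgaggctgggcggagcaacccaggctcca
Rpl7l1: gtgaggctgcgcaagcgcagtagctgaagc
These windows lie at chr17:33955651-33955680 (minus strand) for Rps18, chr2:39005117-39005146 (minus) for Rpl35, chr9:120571502-120571531 (plus) for Rpl14, chr4:86857353-86857382 (minus) for Rps6 and chr2:32961697-32961726 (plus) for Rpl12. Those of the others lie at chr3:90213634-90213663 (minus) for Rps27, chr16:10170213-10170242 (plus) for Rpl39l, chr9:44407699-44407728 (plus) for Rps25, chrX:102189377-102189406 (minus) for Rps4x and chr17:46782642-46782671 (minus) for Rpl7l1. The first 5 genes were lower in villus enterocytes by the test described below and have a tract, Rps27 and Rpl39l have a tract and were not called there, and the last 3 were lower and have no tract in this window. In the 300-base promoter windows (250 bases before to 50 after the start, both strands), the ETS core CCGGAAG was present for 48.8% of the 41 genes and 9.93% of all genes, the SP1 core GGGCGG for 56.1% and 38.2%, the YY1 core AAGATGG for 17.1% and 7.28%, and TATAAA for 14.6% and 15.7%. A match describes the letters only and is not a measured site.

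Ribosomal protein genes stood at the top of the array's range. Of the 47, 32 had a mean over 13 on a scale that ran from 2.90 to 15.18, 31 lay above the 99th percentile of all genes and 12 were among the 20 genes with the highest values. The 5 highest were Rpl41, the smallest ribosomal protein, then Rps29, Rplp2, Rps28 and Rpl37a. Rpl41 read 14.72 and 14.78 in ISC, 14.62 and 14.63 in DBZ Sec-Pro, 14.47 and 14.52 in Rbpj Sec-Pro, 14.74 and 14.72 in Ent-Pro and 14.32 and 14.36 in ENT. Its ENT arrays were the lowest of the 10. The highest ribosomal protein gene lay between 0.13 and 0.86 below the highest value of its array, least far in Ent-Pro and farthest in ENT. How far this nearness to the top compresses differences was not tested. For ENT minus Ent-Pro, Rpl41 gave −0.40 on the probe set used. Its others, at means of 14.43, 8.41 and 7.90, gave −0.64, −1.34 and −1.86. Rps29 went the other way, with −0.61 on the probe set used and −0.20 and −0.39 on others at 14.41 and 14.22.

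**Figure D1:**
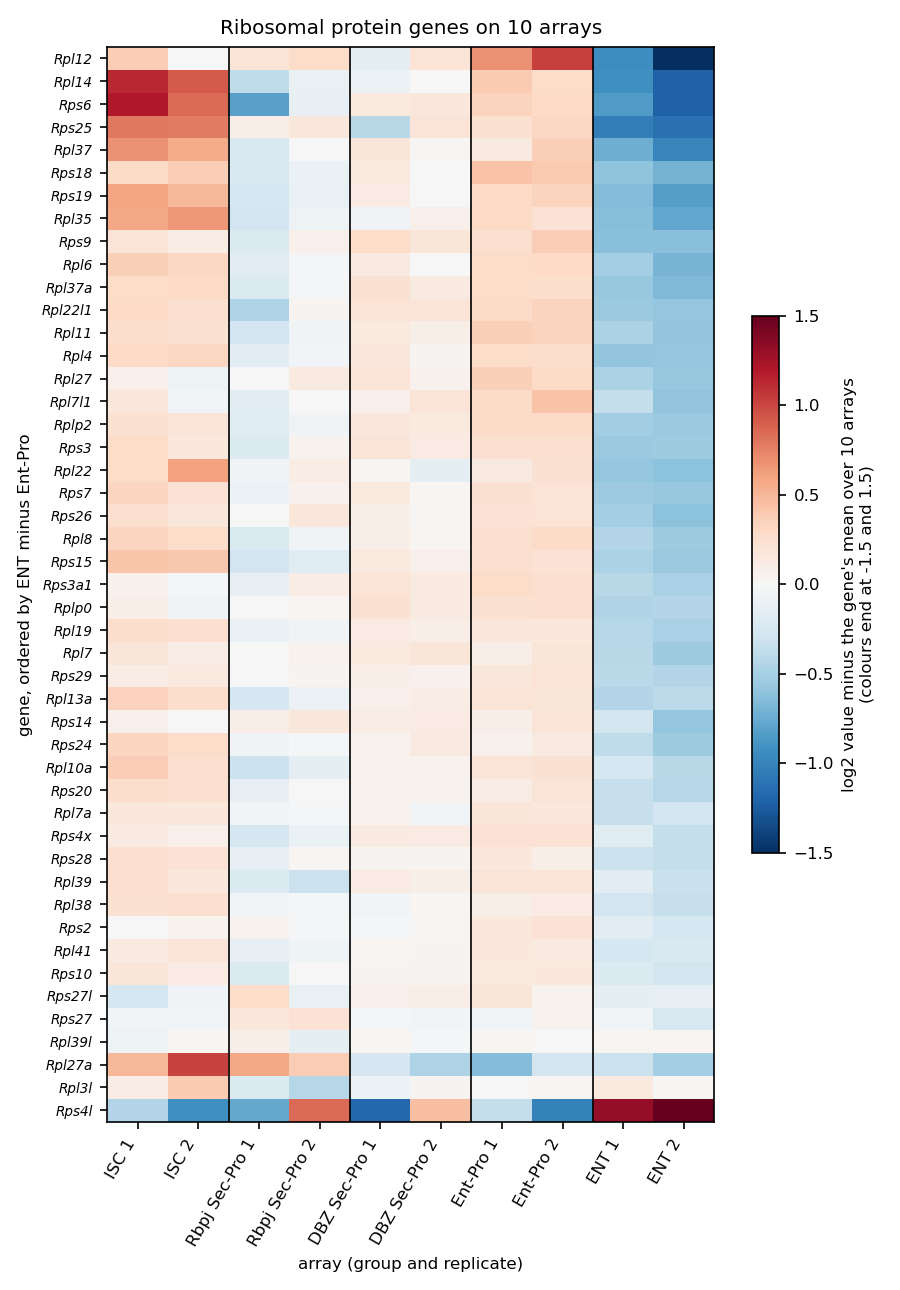
Each row is 1 of the 47 ribosomal protein genes and each column 1 of the 10 arrays, with colour giving the log2 value minus that gene's mean over the 10 arrays. The pair of ENT columns is blue for nearly every gene, the ISC and Ent-Pro columns are mostly red, and Rps4l in the bottom row runs the other way, with its 2 highest values in ENT.

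Across the 5 groups, the median of the 47 genes on an array was 14.14 and 14.12 in ISC, 14.07 and 14.10 in Ent-Pro, 13.94 and 13.96 in DBZ Sec-Pro, 13.60 and 13.81 in Rbpj Sec-Pro, and lowest in ENT at 13.32 and 13.20. The ENT arrays were the lowest and did not overlap with the other groups, Rbpj Sec-Pro came next, and ISC and Ent-Pro differed by less than the pooled within-group SD of 0.08. The median of all 12393 genes ran from 7.30 to 7.59. By a moderated F test over the 5 groups in limma (Benjamini-Hochberg adjusted p under 0.05 over all genes, as for every call below), 42 of the 47 genes differed among groups, against 66.1% of all genes. ENT had the lowest group mean for 41 of the genes, and both ENT arrays lay below the other 8 for 38 of them, which held for 15.4% of all genes. ISC had the highest group mean for 25 genes and Ent-Pro for 18, and both ISC arrays lay above the other 8 for 18 genes, against 18% of all genes. In bulk samples, fewer cells of a type and less RNA per cell cannot be told apart.

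**Figure D2:**
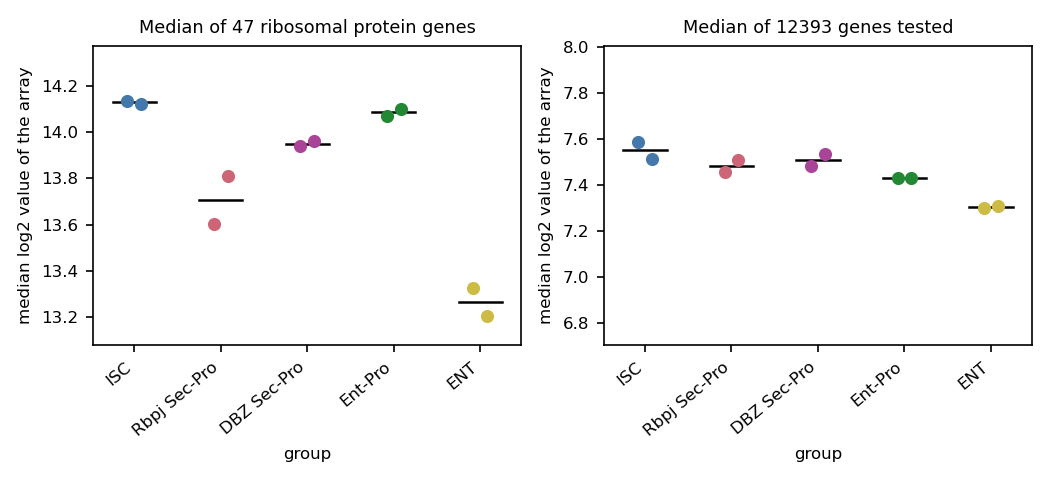
The left panel plots the median log2 value of the 47 ribosomal protein genes on each of the 10 arrays and the right panel the median of all 12393 genes, with a point per array, a line at each group's mean, and axes that do not start at 0. ENT lies at 13.20 and 13.32, below the other 8 arrays, while medians of all genes span 7.30 to 7.59.

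The comparison of ENT with Ent-Pro asks how villus enterocytes differ from enterocyte progenitors of the crypt within Atoh1-/- epithelium. Ribosomal protein mRNAs were lower in villus enterocytes almost throughout: 41 of the 47 genes fell (87.2%), 1 rose and 5 did not pass the test, against 20.2% of all genes that fell and 18.5% that rose. The median difference of the 47 genes was −0.71 (log2), a 1.64-fold lower level, with quartiles of −0.87 and −0.47, and the median of all genes was 0.02. With arrays centred on their medians, which moved the median of all genes to 0.15, the median of the ribosomal protein genes was −0.59 and with cyclic loess −0.66. All 32 genes with a mean over 13 fell, with a median of −0.70, while of the 15 at or below 13, 9 fell, 1 rose and the median was −0.78.

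Of the 21 small-subunit genes, 18 fell and 1 rose, with a median of −0.61. Rps6, the substrate of the S6 kinases, read 10.60 and 10.57 in Ent-Pro and 9.42 and 9.05 in ENT, a difference of −1.35 ± 0.23 (SE, 2 arrays a group, adjusted p = 0.00166). Rps18 read 14.45 and 14.42 in Ent-Pro and 13.42 and 13.31 in ENT, a difference of −1.07 ± 0.12 (adjusted p = 0.000196). Rps19, whose human counterpart is mutated in Diamond-Blackfan anaemia, read 13.96 and 13.99 in Ent-Pro and 13.01 and 12.84 in ENT, a difference of −1.05 ± 0.12 (adjusted p = 0.000252). In each of these genes both ENT arrays lay below all 8 others. Rps25, which viral internal ribosome entry sites require, read 8.89 and 8.98 in Ent-Pro and 7.63 and 7.55 in ENT, a difference of −1.34 ± 0.18 (adjusted p = 0.000497). At the other end, Rps10 had the smallest difference of the genes that fell, −0.39 ± 0.12 (adjusted p = 0.0267), with 14.33 and 14.34 in Ent-Pro and 13.98 and 13.90 in ENT. Its other single-symbol probe sets gave −0.64 to −1.28, so this rank depends on the probe set used.

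Of the 26 large-subunit genes, 23 fell and 3 did not pass, with a median of −0.76. Rpl12, which sits at the base of the stalk, read 8.72 and 9.07 in Ent-Pro and 7.12 and 6.33 in ENT, a difference of −2.17 ± 0.26 (adjusted p = 0.000277) and the furthest downward of the 47 genes. Rpl14 read 8.94 and 8.82 in Ent-Pro and 7.63 and 7.34 in ENT, a difference of −1.39 ± 0.15 (adjusted p = 0.000187). Both genes were lowest in ENT of all groups. Rpl37 read 10.96 and 11.19 in Ent-Pro and 10.10 and 9.84 in ENT, a difference of −1.10 ± 0.15 (adjusted p = 0.00055). Rpl35, which lies beside the tunnel where the nascent chain leaves, read 14.19 and 14.10 in Ent-Pro and 13.25 and 13.11 in ENT, a difference of −0.97 ± 0.13 (adjusted p = 0.000401).

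The stalk and the 5S particle moved with the rest. Rplp0, the stalk's scaffold, read 14.47 and 14.50 in Ent-Pro and 13.80 and 13.81 in ENT, a difference of −0.68 ± 0.11 (adjusted p = 0.00131). Rplp2, one of its acidic arms, read 14.67 and 14.66 in Ent-Pro and 13.85 and 13.82 in ENT, a difference of −0.83 ± 0.11 (adjusted p = 0.000429). Rpl11, which with Rpl5 and 5S rRNA forms the particle that can bind Mdm2, read 14.15 and 14.12 in Ent-Pro and 13.32 and 13.20 in ENT, a difference of −0.87 ± 0.12 (adjusted p = 0.000575). For all 3 genes ENT lay below every other array.

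**Figure D3:**
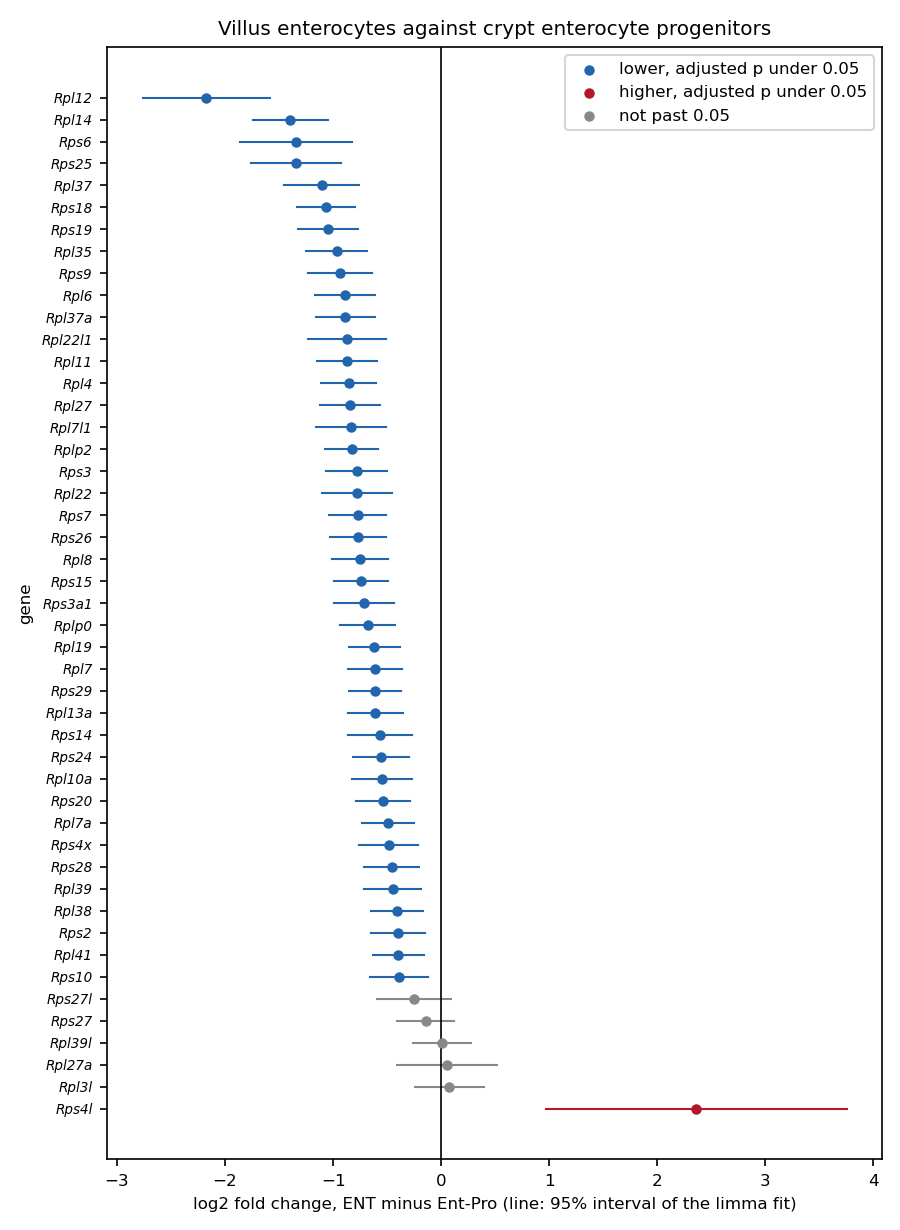
Points give the log2 fold change of ENT over Ent-Pro for each of the 47 ribosomal protein genes, ordered by size, and lines the 95% interval of the limma fit. The 41 genes in blue fell, from −2.17 for Rpl12 to −0.39 for Rps10, 5 in grey did not pass the test, and Rps4l in red rose by 2.36.

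The 6 genes that did not fall in ENT were mostly paralogues or probe sets of low value. Rps4l, a copy of the X-linked Rps4x that RefSeq lists as a transcribed pseudogene, read 8.62 and 7.97 in Ent-Pro and 10.30 and 11.01 in ENT, a rise of 2.36 ± 0.61 (95% interval 0.97 to 3.75, 5.13-fold, adjusted p = 0.0142). Its arrays of 1 group lay far apart, with 7.81 and 9.43 in DBZ Sec-Pro, 8.22 and 9.83 in Rbpj Sec-Pro, less so in ISC with 8.54 and 8.06, and ENT held the highest values. The call was lost without Ent-Pro replicate 2 (2.03, adjusted p = 0.0935) or without ENT replicate 2 (2.01, adjusted p = 0.0893). Rps4x itself fell, from 14.44 and 14.44 in Ent-Pro to 14.04 and 13.86 in ENT, a difference of −0.49 ± 0.12 (adjusted p = 0.0107).

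The other paralogue pairs did not all part ways. Rpl22l1 and Rpl22, a pair in which the Rpl22 protein represses Rpl22l1, both fell, by 0.88 and 0.78 on the log2 scale (adjusted p = 0.00232 and 0.00253). Rpl22l1 read 13.18 and 13.23 in Ent-Pro and 12.34 and 12.31 in ENT. Rpl7l1 and Rpl7 also both fell, by 0.83 and 0.61 on the log2 scale (adjusted p = 0.00164 and 0.00235). Rps27l, a known p53 target, read 13.18 and 13.05 in Ent-Pro and 12.85 and 12.87 in ENT, a difference of −0.25 ± 0.15 (95% interval −0.59 to 0.09, adjusted p = 0.23). Rps27, with 1 probe set at 6.43 to 6.88 on all arrays and 4 of them at the identical value 6.63, differed by −0.14 ± 0.12 (adjusted p = 0.382). Rpl39l, a paralogue of Rpl39 known from testis, was near background on every array, at 4.01 to 4.24, and gives no usable difference. Rpl3l, the striated muscle paralogue of Rpl3, read 4.66 to 5.48 and differed by 0.07 ± 0.14 (adjusted p = 0.739). Among the 41 genes that are not paralogues by name, 39 fell and the median was −0.74. Among the 46 protein-coding genes, 41 fell, and the 1 call of a rise was that of the pseudogene.

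**Figure D4:**
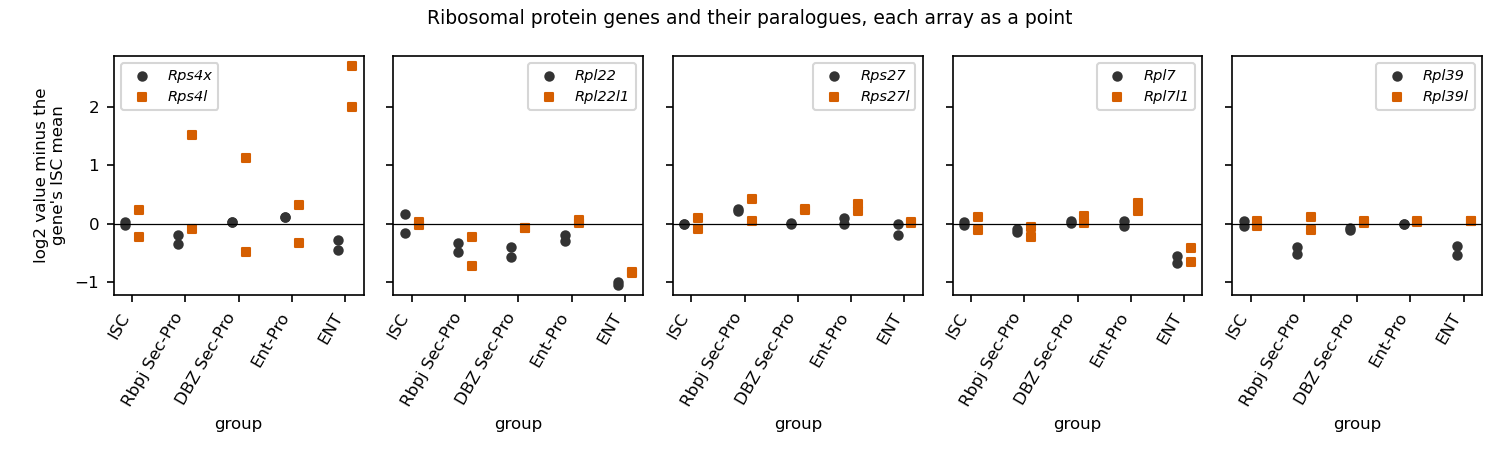
Each panel plots 1 ribosomal protein gene (black) and its paralogue (orange) as log2 value minus the gene's own ISC mean, with a point per array in the 5 groups. In ENT, Rps4l stands above its ISC mean on both arrays while Rps4x lies below, Rpl22 and Rpl22l1 drop together as do Rpl7 and Rpl7l1, and Rps27l and Rpl39l stay near 0.

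The comparison of Ent-Pro with ISC sets crypt enterocyte progenitors beside stem cells. ISC was sorted from Lgr5-eGFP-Cre mice, while Ent-Pro was a crypt fraction of Atoh1-/- mice. Preparation and genotype thus cannot be told apart from cell type. By limma 0 of the 47 genes rose, 2 fell and 45 did not pass the test, against 12.1% of all genes that rose and 13.5% that fell. At an unadjusted p under 0.05, 2 were higher and 6 lower, with no count of all genes at that threshold to set beside them. The median difference was −0.01 against −0.02 for all genes, and its sign depended on the scaling, at 0.11 with centred arrays and −0.27 with cyclic loess, under which 15 genes fell. The median of all genes was 0.10 with centred arrays, so the former shift is one of all genes, and 0.01 with cyclic loess, where 1522 of the 12393 genes fell. Rpl27a, a large-subunit protein, read 9.63 and 10.14 in ISC and 8.47 and 8.85 in Ent-Pro, a difference of −1.22 ± 0.20 (adjusted p = 0.00284). Rpl14 read 9.68 and 9.48 in ISC and 8.94 and 8.82 in Ent-Pro, a difference of −0.69 ± 0.15 (adjusted p = 0.0103). The arrays of the groups did not overlap in either gene, which was a condition for naming them and adds no support. The call for Rpl14 was lost without ISC replicate 1 (−0.59) or Ent-Pro replicate 2 (−0.63). Leaving either Rbpj Sec-Pro array out of the shared fit raised the number of falls, both among the 47 and over all genes.

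The probe sets behind several of these genes bear on their size. Rpl12, Rpl14, Rpl27a, Rpl39, Rps25 and Rps6 are represented by probe sets with means between 7.08 and 10.27, because brighter ones, with means between 13.43 and 14.46, also carry pseudogene symbols and are left out by the rule. For ENT against Ent-Pro the brighter probe sets gave −0.99 for Rpl12, −1.31 for Rpl14, −0.51 for Rpl27a, −0.42 for Rpl39, −0.82 for Rps25 and −0.48 for Rps6. All 6 lay below 0, Rpl27a included, which had read 8.81 and 8.62 in ENT and differed by 0.05 on its own probe set. For Ent-Pro against ISC the brighter probe sets gave −0.07 for Rpl27a and −0.26 for Rpl14, and neither passed the test (adjusted p = 0.733 and 0.135). A further 23 ribosomal protein genes, Rpl3, Rpl5, Rpl10, Rplp1, Rps12 and Rps13 among them, have only probe sets that share a pseudogene symbol. In all 23 both ENT arrays lay below both Ent-Pro arrays, as in 34.0% of all genes, with a median of −0.68 and a range of −0.97 to −0.29. Among the 22 genes with several single-symbol probe sets, 46 of the 51 other probe sets had the sign of the one used in ENT against Ent-Pro and in each comparison of Sec-Pro with ISC or Ent-Pro. The number was 30 in Ent-Pro against ISC and 41 in DBZ against Rbpj Sec-Pro.

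The comparison of Sec-Pro, the mean of both secretory progenitor groups, with ISC sets crypt secretory progenitors beside stem cells. Sorting, Rbpj deletion or DBZ, and cell type differ together here and cannot be told apart. By limma 17 of the 47 genes fell, 0 rose and 30 did not pass, against 27.2% of all genes that fell and 18% that rose. At an unadjusted p under 0.05, 25 were lower and 0 higher, again with no count of all genes at that threshold. The median was −0.24 against −0.11 for all genes. Rps6 read 11.47 and 11.12 in ISC, 10.42 and 10.44 in DBZ Sec-Pro and 9.46 and 10.15 in Rbpj Sec-Pro, a difference of −1.18 ± 0.20 (adjusted p = 0.00135). Rpl14 read 8.46 and 8.55 in DBZ Sec-Pro and 8.18 and 8.44 in Rbpj Sec-Pro, which lay −1.17 ± 0.13 from ISC (adjusted p = 0.000163). Rpl35 read 14.47 and 14.54 in ISC, 13.84 and 13.96 in DBZ Sec-Pro and 13.60 and 13.81 in Rbpj Sec-Pro, a difference of −0.70 ± 0.11 (adjusted p = 0.000867). All 4 Sec-Pro arrays lay below both ISC arrays in these genes and in 16 of the 17 that fell, Rpl27a being the exception. The calls rest on the same arrays and the share of all genes was not counted, so this adds no support.

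Rps25, Rpl37 and Rps19 followed with −0.77, −0.62 and −0.61 (adjusted p = 0.00371, 0.00456 and 0.00167). On the brighter probe sets that share pseudogene symbols, Rps6 and Rps25 differed by −0.21 and −0.22 and did not pass (adjusted p = 0.116 and 0.0903), while Rpl14 differed by −0.60 (adjusted p = 0.00121). Calls of a fall were fewest without an ISC array, both among the ribosomal protein genes and over all genes. Medians of the ribosomal protein genes with single arrays left out ran from −0.26 to −0.20. Cyclic loess moved these counts apart. With it 31 ribosomal protein genes fell, with a median of −0.39, while falls over all genes went down from 3376 to 2519. The mean level of the leukocyte markers, listed above, was higher on the Sec-Pro arrays than in ISC, with 7 of 10 passing the test. All 8 enterocyte markers rose in the same comparison, with a median of 2.69, and 12 of 20 cell cycle genes fell, with a median of −0.50. The part of each in these differences was not tested.

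The comparison of Sec-Pro with Ent-Pro sets crypts enriched for progenitors of either lineage side by side. Lineage differs here together with Rbpj deletion or DBZ in Sec-Pro and Atoh1 loss in Ent-Pro, and these cannot be told apart. Of 8 enterocyte markers 0 rose and 0 fell, with a median of 0.27. By limma 6 of the 47 genes fell, 0 rose and 41 did not pass, against 14.7% of all genes that fell and 9.27% that rose. At an unadjusted p under 0.05, 19 were lower and 1 higher, again with no count of all genes at that threshold. The median was −0.20 against −0.09 for all genes, and 44 of the 47 (93.6%) lay below 0 against 62.1% of all genes. Rps18 read 14.16 and 14.03 in DBZ Sec-Pro and 13.79 and 13.92 in Rbpj Sec-Pro, below both Ent-Pro arrays, a difference of −0.46 ± 0.10 (adjusted p = 0.0139). Rpl12, Rpl14, Rps19, Rpl11 and Rpl35 differed by −0.72, −0.48, −0.37, −0.37 and −0.34, with adjusted p between 0.0321 and 0.0495. On the brighter probe sets that share pseudogene symbols, Rpl12 differed by −0.28 and did not pass (adjusted p = 0.0731), and Rpl14 by −0.34 (adjusted p = 0.0385). These calls were fragile, as were those of all genes. Calls of a fall were fewest without an Ent-Pro array, both among the 47 and over all genes. Leaving out 1 array at a time gave medians of −0.24 to −0.19. With DBZ Sec-Pro alone 0 fell and the median was −0.11, while 1211 of all 12393 genes fell, with a median of −0.08. With Rbpj Sec-Pro alone 18 fell and 1 rose, while 2094 of all genes fell and 1161 rose, with a median of −0.12. In the same comparison 19 of 20 cell cycle genes fell, with a median of −0.87, and 4 of 10 leukocyte markers rose, with a median of 1.48, and their part was not tested.

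The comparison of DBZ with Rbpj Sec-Pro sets the 2 ways of blocking Notch side by side. By limma 0 of the 47 genes rose, 1 fell and 46 did not pass, against 9.34% of all genes that rose and 7.08% that fell. At an unadjusted p under 0.05, 9 were higher and 1 lower, again with no count of all genes at that threshold. The median was 0.17 against 0.06 for all genes, and 38 of 47 (80.9%) lay above 0 against 56.9% of all genes. Rbpj Sec-Pro replicate 1 lay below replicate 2 in 41 of the 47 genes, against 51.7% of all genes. The mean leukocyte marker levels of the pair of Rbpj arrays, 6.74 and 8.83, also lay apart. Between DBZ and Rbpj Sec-Pro 0 of 10 leukocyte markers passed the test. Of 8 enterocyte markers 3 fell and 0 rose, with a median of −0.56. Of 8 enteroendocrine markers 3 rose and 0 fell, with a median of 0.77. Of 6 stem cell markers 1 rose and 0 fell, with a median of 0.87. The part of each in the ribosomal protein differences was not tested. Without replicate 1 the median between DBZ and Rbpj Sec-Pro was 0.11 and without replicate 2 it was 0.23. Rps15 read 13.84 and 13.77 in DBZ Sec-Pro and 13.41 and 13.51 in Rbpj Sec-Pro, with an adjusted p of 0.0603. The gene that fell was Rpl27a, at 8.87 and 8.66 in DBZ Sec-Pro and 9.70 and 9.50 in Rbpj Sec-Pro, a difference of −0.84 ± 0.20 (adjusted p = 0.0271). On its brighter probe set, shared with a pseudogene symbol, the difference was 0.17 (adjusted p = 0.322). The call was also lost without Rbpj Sec-Pro replicate 1 (adjusted p = 0.103) or without DBZ Sec-Pro replicate 1 or 2 (adjusted p = 0.0571 and 0.153).

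Proteins of the ribosome outside the naming rule moved unequally. Rpsa, a small-subunit protein that is also called the laminin receptor, read 14.81 and 14.82 in ISC, 14.34 and 14.36 in Ent-Pro and 13.42 and 13.31 in ENT. It fell between ISC and Ent-Pro (−0.46, adjusted p = 0.0187) and between Ent-Pro and ENT (−0.99, adjusted p = 0.000262). The former call was lost with centred arrays (−0.34, adjusted p = 0.0607). Fau, which encodes a ubiquitin-like protein fused to Rps30, read 14.02 and 14.08 in Ent-Pro and 14.09 and 14.12 in ENT, a difference of 0.05 ± 0.11 (adjusted p = 0.752). It differed by −0.13 between ISC and Ent-Pro (adjusted p = 0.468), a fall that passed with cyclic loess (−0.40, adjusted p = 0.0258).

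Genes that build or use ribosomes were read from lists chosen for their function. Of 80 measured ribosome assembly genes, 74 fell and 1 rose in ENT against Ent-Pro, with a median of −1.48, below the median of −0.71 of the ribosomal protein genes. Ncl, the nucleolar protein nucleolin, read 13.19 and 13.18 in Ent-Pro and 10.24 and 10.84 in ENT, a difference of −2.64 ± 0.18 (adjusted p = 4.63e-05). Npm1, nucleophosmin, and Fbl, the methylase fibrillarin, fell by 1.92 and 1.87 on the log2 scale (adjusted p = 5.12e-05 and 5.76e-05). The assembly gene that rose was Sbds, which releases Eif6 from the large subunit (1.23, adjusted p = 0.00117). Of 12 RNA polymerase I genes 9 fell with a median of −0.76, and of 74 mitochondrial ribosomal protein genes 41 fell and 2 rose with a median of −0.43.

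Translation factors were split. Of 31 initiation factor genes 22 fell and 1, Eif6, rose, with a median of −0.72, and of 12 elongation genes 7 fell with a median of −0.69. Eef1a1 and Eef2, the elongation factors whose mRNAs also carry pyrimidine tracts, differed by −0.26 ± 0.11 and −0.10 ± 0.12 and did not pass (adjusted p = 0.0874 and 0.568). Tpt1, another mRNA of that class, differed by −0.05 ± 0.11 (adjusted p = 0.782). The direction of each of these list medians was the same with centred arrays and with cyclic loess.

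The same lists were read in the crypt comparisons. For Sec-Pro against Ent-Pro, 51 of 80 assembly genes fell with a median of −0.48, and 48 of 74 mitochondrial ribosomal protein genes fell with a median of −0.44, beside 6 of 47 and −0.20 for the cytoplasmic ribosomal proteins. Of all genes 14.7% fell in that comparison. For Sec-Pro against ISC, 55 assembly genes fell and 3 rose with a median of −0.57, against 27.2% and 18% of all genes. For Ent-Pro against ISC, 16 (20%) fell and 12 (15%) rose with a median of −0.08, against 13.5% and 12.1% of all genes. The sign of this last median depended on the scaling, at 0.04 with centred arrays and −0.04 with cyclic loess. Differences between lists were not tested.

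**Figure D5:**
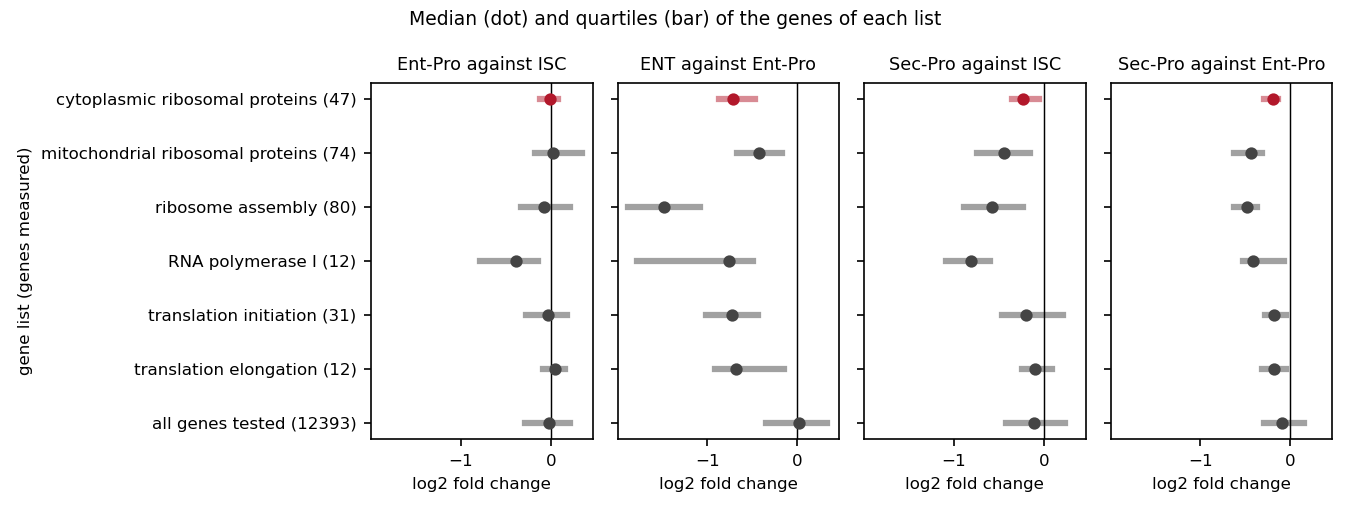
Dots mark the median and bars the quartiles of the log2 fold changes of each gene list in 4 comparisons, with the number of genes measured in brackets and the 47 cytoplasmic ribosomal protein genes in red. In ENT against Ent-Pro the ribosomal proteins lie at −0.71 and the assembly genes at −1.48, while all genes lie at 0.02.

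Regulators of ribosome production were read singly. Myc read 10.51 and 10.51 in ISC, 10.50 and 10.65 in Ent-Pro, 8.86 to 9.16 on the 4 Sec-Pro arrays and 8.75 and 8.41 in ENT. It fell in ENT against Ent-Pro (−1.99 ± 0.15, adjusted p = 5.4e-05) and in Sec-Pro against Ent-Pro (−1.51 ± 0.13, adjusted p = 0.00016), while the ribosomal protein genes had medians of −0.71 and −0.20 in the same comparisons. Larp1 read 10.92 and 10.97 in Ent-Pro and 9.71 and 9.72 in ENT (−1.23 ± 0.15, adjusted p = 0.00028). Mxd1, an antagonist of Myc, read 6.06 and 6.43 in Ent-Pro and 8.57 and 8.38 in ENT, a rise of 2.23 ± 0.25 (adjusted p = 0.000214). Mtor differed by 0.02 ± 0.12 (adjusted p = 0.913). Over the whole list of 19 measured Myc and mTOR regulators, 5 (26.3%) fell and 4 (21.1%) rose in ENT, with a median of −0.01. These shares lay near the 20.2% and 18.5% of all genes. The part of these regulators in the ribosomal protein differences was not tested.

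Cell cycle genes fell in ENT beside the ribosomal protein genes. All 20 measured cell cycle genes fell in ENT against Ent-Pro, with a median of −2.02, and their mean level was 10.39 to 10.54 in Ent-Pro and 8.41 to 8.46 in ENT. Of the 10 leukocyte markers 4 rose and 1 fell. The mean level of 9 stromal markers lay between 5.32 and 5.46 across both groups. The part of cell division and of leukocyte RNA in the ribosomal protein differences was not tested.

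A start-site tract was present for 25 of the 36 genes with sequence that fell in ENT and for 5 of the 5 with sequence that did not pass, a split given as counts only. Over the 47 genes the correlation between mean level and log2 fold change of ENT over Ent-Pro was −0.18 (Pearson) and 0.14 (Spearman), a description over genes that share the same arrays.

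By correlation of the 5 group means with the mean of the 47 ribosomal protein genes, the most similar genes outside the family were Snrnp70, a U1 splicing particle protein, Ddx27, a nucleolar RNA helicase, Ssbp1, the mitochondrial single-strand DNA-binding protein, Tdp1, a DNA repair enzyme, and Cct3, a chaperonin subunit, with r from 0.997 to 0.999 over 5 groups. Snrnp70 had group means of 10.67 in ISC, 10.41 in Ent-Pro, 10.08 in DBZ Sec-Pro, 9.79 in Rbpj Sec-Pro and 8.69 in ENT, the same order as the ribosomal protein genes. With 5 points and this many genes to choose from, a high r is easily reached.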

How the data were processed

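Total RNA, extracted with Trizol, was measured on 10 Affymetrix mouse 430A 2.0 arrays, 2 in each of 5 groups taken from the sample titles. The values the authors deposited are on a log2 scale, for 22690 probe sets. The submitters' processing notes name RMA and MAS5, with no role or version. They entered the fit with no further scaling. Arrays carry no read depth, so the number of arrays limits the precision.

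Probe sets were named by the platform annotation: 20380 had 1 gene symbol, 691 several and 1555 none, and 64 controls were left out. Symbols ending in -ps and a number were treated as pseudogenes. The probe set with the highest mean stood for its gene, which gave 12393 genes and no filter. All 10 arrays entered 1 model with 5 group means in limma 3.58.1 (R 4.3.3), with 5 residual and 3.75 prior degrees of freedom. P-values were adjusted by Benjamini-Hochberg over all genes and called under 0.05. Errors are standard errors of that fit. Near background means within 1 (log2) of the absent control TrpnX. The fit was tested on simulated data.

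Named genes were the 6 largest called changes per direction without overlap of arrays, the 5 brightest and 5 dimmest, those with the 5 largest and 3 smallest ranges, all paralogues, stalk and 5S particle genes, and up to 3 called genes per list. Rps10, Rps15 and the medians by level were added after values were seen. The members, lists and rule were chosen with earlier results of these data known, and support nothing by themselves. Alternatives were scaling, a filter on dim genes, the choice of probe set, the samples in the fit, a replicate block and leaving out each array, with 4 more chosen after seeing the data (the dimmest probe set, either Sec-Pro group alone, and probe sets shared with pseudogenes). Start-site windows and promoters are RefSeq sequence of GRCm38.p6, matched by symbol for 41 of 47 genes. Ties were compared to 6 decimals, and 20.8% of probe sets held the same value on 2 or more arrays.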

Additional observations from a re-analysis of the deposited data

Results flagged for a closer look

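Rpl27a differed between the 2 secretory progenitor groups, at −0.84 (log2, DBZ minus Rbpj Sec-Pro, limma adjusted p = 0.0271), and was picked out because the difference between these groups itself passed the test. Both DBZ arrays (8.87 and 8.66) lay below both Rbpj arrays (9.70 and 9.50), which rests on the same values as the call and adds no support. On the brighter probe set that shares a pseudogene symbol the difference was 0.17 (adjusted p = 0.322), and on the other single-symbol probe set −0.24 (adjusted p = 0.495). The adjusted p was also above 0.05 with the mean of its probe sets (0.0903), with only these groups in the fit (0.0841), without Rbpj Sec-Pro replicate 1 (0.103) and without DBZ Sec-Pro replicate 1 or 2 (0.0571 and 0.153).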

How the results depend on the processing

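The fall of the ribosomal protein genes in ENT against Ent-Pro kept its direction under each alternative run, and single members moved more than the family. With arrays centred on their medians, 2 of the 47 genes rose in Ent-Pro against ISC (median 0.11), the median for ENT against Ent-Pro was −0.59, and 15 fell in Sec-Pro against Ent-Pro; over all genes, 1905 rose and 1277 fell in Ent-Pro against ISC (1498 and 1667 on the deposited values), 2974 and 2128 in ENT against Ent-Pro (2291 and 2501) and 1001 and 2504 in Sec-Pro against Ent-Pro (1149 and 1826). With cyclic loess, 1 rose and 15 fell in Ent-Pro against ISC (median −0.27), 1 rose and 31 fell in Sec-Pro against ISC (median −0.39), 2 fell in Sec-Pro against Ent-Pro (median −0.089) and 1 rose in DBZ against Rbpj Sec-Pro; over all genes, 2838 rose and 2519 fell in Sec-Pro against ISC (2230 and 3376) and 1434 and 1206 in Sec-Pro against Ent-Pro. With the same loess scaling 1572 of all genes rose and 1522 fell in Ent-Pro against ISC. Among the 43 members above the median level of all genes, 5 fell in Ent-Pro against ISC and 1 rose in Sec-Pro against Ent-Pro. Of all 6196 genes above that level, 1279 fell and 824 rose in these comparisons. With the mean of the probe sets, 1 rose in Sec-Pro against ISC, and 3 rose and 0 fell in DBZ against Rbpj Sec-Pro. Over all genes, 2226 rose in the former, and 1120 rose and 849 fell in the latter. Without x_at probe sets (42 members), 1 rose in each of Ent-Pro and Sec-Pro against ISC, beside 1551 and 2278 of 12320 genes. With only the groups compared in the fit, 1 rose and 4 fell in Ent-Pro against ISC, 11 fell in Sec-Pro against ISC, 3 in Sec-Pro against Ent-Pro and 0 in DBZ against Rbpj Sec-Pro. Over all genes, 1768 rose and 2034 fell in Ent-Pro against ISC, 2894 fell in Sec-Pro against ISC and 1230 in Sec-Pro against Ent-Pro. For DBZ against Rbpj Sec-Pro 43 of all genes rose and 54 fell, so 0 of 47 is near the share of all genes. Alternatives chosen after seeing the data were the dimmest probe set (2 rose in Ent-Pro against ISC, 1 in Sec-Pro against ISC and 3 in DBZ against Rbpj Sec-Pro), DBZ alone (8 fell against ISC, median −0.15, and 0 against Ent-Pro, median −0.11), Rbpj alone (1 rose and 18 fell against Ent-Pro) and probe sets shared with pseudogenes (70 genes, of which 64 fell in ENT against Ent-Pro, 0 fell in Ent-Pro against ISC and in DBZ against Rbpj Sec-Pro, and 64 differed among groups). Over all genes, the dimmest probe sets gave 1296, 2037 and 975 rises in the comparisons named for them. With DBZ alone 2512 of all genes fell against ISC and 1211 against Ent-Pro. With Rbpj alone 1161 rose and 2094 fell against Ent-Pro. With shared probe sets 2526 of 12416 genes fell in ENT against Ent-Pro, 1664 in Ent-Pro against ISC and 877 in DBZ against Rbpj Sec-Pro. Reversed were Rps6 in ENT against Ent-Pro on its dimmest probe set (0.18) and Rpl27a in DBZ against Rbpj Sec-Pro on the shared probe set (0.17). The cause of these moves was not tested. Leaving out 1 array at a time gave, for Ent-Pro against ISC, 0 to 1 higher, 1 to 4 lower and medians of −0.03 to −0.0017; for ENT against Ent-Pro, 0 to 1, 33 to 41 and −0.75 to −0.69; for Sec-Pro against ISC, 0 to 1, 8 to 20 and −0.26 to −0.20; for Sec-Pro against Ent-Pro, 0 to 1, 0 to 10 and −0.24 to −0.19; for DBZ against Rbpj Sec-Pro, 0 to 2, 0 to 1 and 0.11 to 0.23; and 34 to 43 members differing among groups. A lone array left in a group was assumed to vary like the other groups. Calls over all genes moved with the array left out as well, so these counts are not a trait of the ribosomal protein genes. With the replicate block, 2 fell in Sec-Pro against Ent-Pro, beside 1558 of all genes. Same-numbered arrays did not deviate together (correlations from −0.19 to 0.17), so the numbers were not taken as pairs. Of 440 values of named members under alternatives, 360 kept direction and call, 78 kept direction only and 2 reversed.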
